A study of Mus musculus with 77 samples.

Results

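The expression of 10 neutrophil genes was followed in whole blood of mice after chronic social defeat stress (CSDS). The genes were S100a8, S100a9, Camp, Lcn2, Ly6g, Mmp8, Mmp9, Retnlg, Cxcr2 and Csf3r, chosen by name as genes of this cell type and found as 10 rows among the 13084 genes of the blood mRNA data. Their values were compared per mouse across 5 groups of 5 male mice of 8 weeks of age. The groups were control, stress-resilient and stress-susceptible mice of the inbred strain C57BL/6Crl (B6), and control and stress-susceptible mice of the inbred strain DBA/2Crl (D2), as the labels name them (C57BL/6NCrl and DBA/2NCrl in the methods of the study).

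Defeated mice had been exposed repeatedly to CD-1 aggressors, whereas control mice lived opposite a same-strain neighbour behind a perforated divider. A defeated mouse was susceptible if its social interaction ratio was more than 1 SD below the mean of the same-strain controls, and resilient otherwise. Blood was collected 6 to 8 days after the last defeat session, and mice from the extremes of the phenotype were taken for sequencing. Resilient D2 mice are not part of the blood data, so the D2 comparison has no resilient arm. Blood was not sorted, and each library came from 1 mouse and held the RNA of all blood cells.

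Neutrophils are short-lived granulocytes that mature in the bone marrow and leave it in response to granulocyte colony-stimulating factor (G-CSF) and to chemokines that bind CXCR2. Granule proteins are made in order while the cell matures: those of the secondary granules (Camp, Lcn2) come before those of the gelatinase granules (Mmp9). The surface receptor Cxcr2 marks the mature cell. Stress hormones and the sympathetic nervous system are known to move neutrophils from the marrow and the vessel wall into the circulation, which makes blood transcripts of this cell type a common readout in stress studies.

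Reads recovered from the deposited values numbered between 9751603 and 15878495 per mRNA library (median 13290205), and each of the 10 genes had reads in every mouse, from 11 reads of Ly6g in 1 mouse to 29807 reads of S100a9 in another. Values are log2 CPM, the log2 of reads brought by the authors to a common library size. For 2 D2 mice the data column is named for another group than the label: susceptible replicate 2 carries the suffix of a control column, and control replicate 2 carries the suffix of a susceptible column. Groups follow the labels below, and the D2 results of the 10 genes and of miR-223-5p were also computed with the groups of the column names and without these mice. At an unadjusted p under 0.05 by limma and a fold change of at least 1.2, D2 susceptible mice against controls gave 206 genes with the labels. The column names gave 890. The count that the paper reports for this comparison at these thresholds lies nearer to the second. Which naming is right was not settled here. One B6 library, susceptible replicate 1, stood apart from the others, with the highest value of all 25 mice in 9 of the 10 genes, and the comparisons of B6 susceptible mice are given with and without it. The labels do not say whether mice of a group shared a litter or cage, so p-values measure the spread between these mice.

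The promoters of 4 members are shown as examples: the receptors Cxcr2 and Csf3r, which were higher in D2 than in B6 controls, and the alarmin pair S100a8 and S100a9, whose levels followed each other most closely over the B6 mice. Each stretch is the RefSeq window from 250 bases before to 50 bases after the annotated start in GRCm38.p6, written 5′ to 3′ on the strand of the gene. Capitals mark the letters TATAAA (the TATA box) and GAGGAA (a core bound by ETS factors such as PU.1) on either strand.

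Cxcr2, chr1:74153744-74154043, plus strand: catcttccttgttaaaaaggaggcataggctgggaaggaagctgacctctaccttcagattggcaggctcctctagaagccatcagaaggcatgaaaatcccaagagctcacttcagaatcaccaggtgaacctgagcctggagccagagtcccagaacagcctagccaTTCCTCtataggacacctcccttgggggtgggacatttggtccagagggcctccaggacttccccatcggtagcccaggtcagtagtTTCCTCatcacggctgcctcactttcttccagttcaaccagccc

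Csf3r, chr4:126024409-126024708, plus strand: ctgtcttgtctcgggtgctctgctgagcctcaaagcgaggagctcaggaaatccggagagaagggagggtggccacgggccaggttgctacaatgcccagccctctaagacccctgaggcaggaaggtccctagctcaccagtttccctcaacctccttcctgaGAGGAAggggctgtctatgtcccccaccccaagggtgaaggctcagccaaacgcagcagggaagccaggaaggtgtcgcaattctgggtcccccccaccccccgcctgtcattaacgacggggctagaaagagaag

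S100a8, chr3:90668821-90669120, plus strand: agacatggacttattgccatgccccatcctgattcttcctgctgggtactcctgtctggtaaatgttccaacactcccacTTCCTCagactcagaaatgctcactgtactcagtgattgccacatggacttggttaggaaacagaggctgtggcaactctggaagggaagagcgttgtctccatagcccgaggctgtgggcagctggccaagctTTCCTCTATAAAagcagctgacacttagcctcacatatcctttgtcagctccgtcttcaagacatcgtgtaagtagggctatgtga

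S100a9, chr3:90695672-90695971, minus strand: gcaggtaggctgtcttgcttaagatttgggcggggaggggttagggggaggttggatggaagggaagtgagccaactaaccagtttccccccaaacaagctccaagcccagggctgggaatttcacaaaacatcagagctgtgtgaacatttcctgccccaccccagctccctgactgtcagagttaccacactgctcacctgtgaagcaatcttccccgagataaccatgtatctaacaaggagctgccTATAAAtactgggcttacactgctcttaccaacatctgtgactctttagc

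Of the 10 members, 9 had such a window in the RefSeq table (all but Mmp9). The letters GAGGAA were found in the windows of 6 of these 9 (S100a8, Mmp8, Cxcr2, Csf3r, Ly6g and Lcn2), against 28.3% of all 32851 promoter windows. TATAAA was found in 4 of 9 (S100a8, S100a9, Mmp8 and Ly6g), against 13.6%, and TTNNGNAA, a C/EBP-type motif that is not marked above, in 6 of 9 against 40.7%. The motifs were searched on both strands, and in S100a8 a GAGGAA on the minus strand lies directly before the TATAAA at position -30, counted from the annotated start at 0, without overlap. Neither receptor window held TATAAA or TTNNGNAA. These matches describe the letters of the windows and nothing more.

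Levels per length of transcript spanned a wide range. On the scale of log2 CPM per kilobase of annotated exons, S100a9 was the highest of the genes (mean over the 25 mice 10.9), followed by S100a8 (9.59), Retnlg (7.26) and Camp (5.83). Cxcr2 (4.35), Mmp8 (4.27), Mmp9 (3.79) and Csf3r (3.65) lay close together, and Lcn2 (2.21) and Ly6g (1.92) were lowest. S100a9 was above S100a8, S100a8 above Retnlg and Retnlg above Camp in 25 of 25 mice. Cxcr2 was above Mmp8 in 14 of 25 mice and Mmp9 above Csf3r in 14 of 25, so these neighbours had no fixed order. Ly6g and Retnlg belong to multigene families with similar copies, and their levels are less certain than those of the other genes.

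The genes varied between mice of 1 group. The SD within groups ranged from 0.42 (Retnlg) to 0.88 (Camp) on the log2 scale, while the median over all 13084 genes was 0.36. Camp exceeded 92.8% of all genes by this measure, Lcn2 90.7% and Ly6g 88.5%. Over the 25 mice the lowest and highest values of Camp differed 10.2-fold, those of Lcn2 10.6-fold, those of Ly6g 12.0-fold, and those of Retnlg, the most even member, 4.43-fold.

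**Figure D1:**
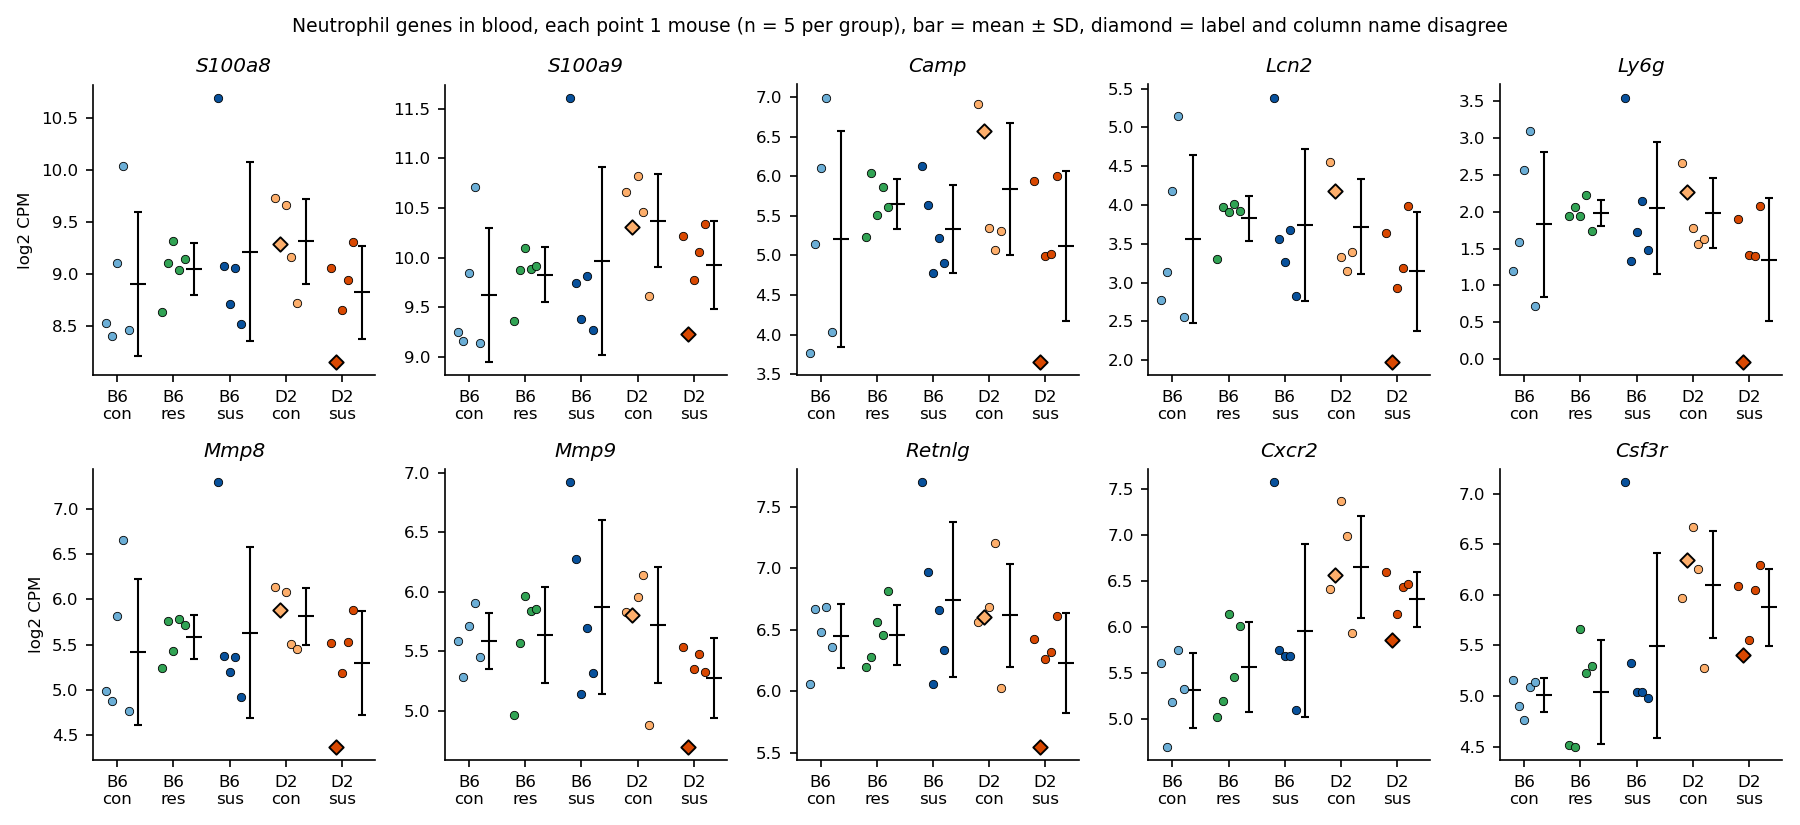
Log2 CPM (y axis) of the 10 genes in each mouse of the 5 groups (x axis, con = control, res = resilient, sus = susceptible), with bars for the mean and SD of 5 mice and diamonds for the 2 D2 mice whose label and column name disagree. The separate high point in the B6 susceptible group is replicate 1, and the D2 control points of Cxcr2 and Csf3r all lie above the B6 control points.

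S100a8 (ENSMUSG00000056054, chr3:90668978-90670035, plus strand of GRCm38) and S100a9 (ENSMUSG00000056071, chr3:90692632-90695721, minus strand) encode the 2 subunits of calprotectin, the main calcium-binding protein of the neutrophil cytosol. S100a8 was 8.41, 8.46, 8.53, 9.11 and 10.03 log2 CPM in B6 controls, 8.64, 9.04, 9.11, 9.14 and 9.32 in B6 resilient mice and 8.53, 8.71, 9.06, 9.07 and 10.69 in B6 susceptible mice. In the D2 strain it was 8.73, 9.17, 9.29, 9.67 and 9.73 in controls and 8.16, 8.65, 8.94, 9.06 and 9.31 in susceptible mice. All of these groups overlapped, and the single high mice of the B6 control and B6 susceptible groups lay above every D2 mouse.

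S100a9 gave 9.14, 9.16, 9.25, 9.85 and 10.71 log2 CPM in B6 controls, 9.37, 9.87, 9.89, 9.92 and 10.10 in B6 resilient mice and 9.27, 9.39, 9.75, 9.82 and 11.61 in B6 susceptible mice. D2 controls gave 9.62, 10.31, 10.46, 10.66 and 10.82 and D2 susceptible mice 9.24, 9.77, 10.06, 10.22 and 10.34. As for S100a8, the groups overlapped and B6 susceptible replicate 1 was the highest mouse. The difference of S100a9 and S100a8 within a mouse, which does not depend on the scaling of the library, was between 0.67 and 0.92 (median 0.74) in the 15 B6 mice and between 0.89 and 1.29 (median 1.098) in the 10 D2 mice on the log2 scale.

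Camp (ENSMUSG00000038357, chr9:109847379-109849617, minus strand) encodes the antimicrobial cathelicidin of the secondary granules. It was 3.77, 4.03, 5.14, 6.11 and 7.00 log2 CPM in B6 controls, 5.23, 5.51, 5.61, 5.86 and 6.05 in B6 resilient mice and 4.78, 4.91, 5.22, 5.64 and 6.13 in B6 susceptible mice. D2 controls had 5.07, 5.31, 5.35, 6.57 and 6.91 and D2 susceptible mice 3.65, 5.00, 5.02, 5.94 and 6.00. The B6 controls held the highest mouse and the second lowest, and the groups overlapped throughout.

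Lcn2 (ENSMUSG00000026822, chr2:32384633-32388252, minus strand) encodes lipocalin 2, which withholds iron-binding siderophores from bacteria. It ranged from 2.56 to 5.15 in B6 controls, from 3.31 to 4.02 in B6 resilient, from 2.83 to 5.38 in B6 susceptible, from 3.14 to 4.55 in D2 control and from 1.98 to 3.99 in D2 susceptible mice. Ly6g (ENSMUSG00000022582, chr15:75155240-75159126, plus strand), the surface antigen used to sort mouse neutrophils, was the scarcest member, with 11 to 124 reads per mouse and values between -0.04 and 3.55 log2 CPM. Both genes were narrowest in B6 resilient mice, in which the SD of Lcn2 was 0.29 against 1.08 in B6 controls, and that of Ly6g 0.18 against 0.98. This difference in spread was not tested.

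The collagenase Mmp8 (ENSMUSG00000005800, chr9:7558456-7568485, plus strand) and the gelatinase Mmp9 (ENSMUSG00000017737, chr2:164940780-164955850, plus strand) are stored in granules and cut matrix proteins. Mmp8 ranged from 4.37 to 7.29 log2 CPM over the 25 mice and Mmp9 from 4.70 to 6.92. Retnlg (ENSMUSG00000022651, chr16:48872621-48874496, plus strand) encodes a secreted resistin-like protein of mature neutrophils and ranged from 5.55 to 7.70. B6 susceptible replicate 1 was the highest mouse for all 3 genes, and D2 susceptible replicate 2 the lowest.

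Cxcr2 (ENSMUSG00000026180, chr1:74153989-74161246, plus strand) encodes the chemokine receptor that guides neutrophils out of the marrow and into tissue. It was 4.70, 5.18, 5.32, 5.60 and 5.74 log2 CPM in B6 controls, 5.02, 5.20, 5.46, 6.01 and 6.14 in B6 resilient mice and 5.10, 5.69, 5.69, 5.74 and 7.57 in B6 susceptible mice. D2 controls had 5.93, 6.41, 6.57, 6.99 and 7.37, and D2 susceptible mice 5.86, 6.14, 6.44, 6.46 and 6.59. Every D2 control lay above every B6 control. Apart from susceptible replicate 1, the highest of the 14 other B6 mice reached 6.14, above the lowest D2 mouse at 5.86, so the strains overlapped over all groups.

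Csf3r (ENSMUSG00000028859, chr4:126024550-126044440, plus strand) encodes the receptor of G-CSF, the growth factor of the granulocyte lineage. Its values were 4.76, 4.90, 5.09, 5.13 and 5.15 log2 CPM in B6 controls, 4.50, 4.52, 5.23, 5.30 and 5.66 in B6 resilient mice and 4.98, 5.04, 5.04, 5.32 and 7.11 in B6 susceptible mice. In D2 controls they were 5.27, 5.97, 6.26, 6.34 and 6.67, and in D2 susceptible mice 5.41, 5.55, 6.05, 6.09 and 6.30. The B6 controls lay within a narrow band, all of it below the D2 controls.

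To test whether the neutrophil genes responded to CSDS in the B6 strain, resilient and susceptible mice were compared with controls by limma, and genes were called at an unadjusted p under 0.05 together with a fold change of at least 1.2. None of the 10 genes was called in resilient mice against controls, where 2.11% of all 13084 genes were called, and 0 of 10 had an unadjusted p under 0.05. The log2 fold changes were positive for all 10 genes but small (median 0.16, range 0.01 to 0.44, median of all genes 0.02), and exact permutation p-values of the 5 against 5 mice ran from 0.405 to 0.960. The sign was not the same under every scaling, since with values scaled to total reads 6 of the 10 genes (S100a8, Mmp8, Mmp9, Ly6g, Retnlg and Csf3r) were negative while the median of all genes moved by -0.18. The largest difference was that of Camp, 0.44 ± 0.51 (SE), with a 95% interval from -0.60 to 1.49. Without control replicate 4, the highest Camp mouse, it was 0.89 and that of Lcn2 was 0.67 instead of 0.27, neither of them called. In bulk blood, a lower level from fewer neutrophils and one from less RNA per neutrophil cannot be told apart.

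In susceptible B6 mice against controls, 0 of 10 genes were called and 0 had an unadjusted p under 0.05, against 4.50% of all genes called. The fold changes were again all positive (median 0.29, range 0.13 to 0.65 on the log2 scale, median of all genes 0.02). Cxcr2 came closest to the threshold, with means of 5.96 ± 0.94 (SD, n = 5) in susceptible mice and 5.31 ± 0.41 (SD, n = 5) in controls, a log2 fold change of 0.65 ± 0.34 (SE, 95% interval -0.05 to 1.34), p = 0.0676 and adjusted p = 0.968 by limma, and an exact permutation p of 0.214. Without susceptible replicate 1 the difference of Cxcr2 was 0.24 and that of Csf3r 0.09 instead of 0.49, and 6 of the 10 genes, S100a8, S100a9, Mmp8, Ly6g, Lcn2 and Camp, then had a negative sign, none of them called. Cxcr2 passed the threshold without control replicate 4 (0.75, adjusted p = 0.767 by limma) and without susceptible replicate 5 (0.86, adjusted p = 0.999 by limma).

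The titles of the B6 mice start with EC3 or EC4, and the direction of the susceptible against control difference depended on this prefix, whose meaning the labels do not give. Among EC3 mice (2 susceptible, 2 control), all 10 genes were higher in susceptible mice, by 0.97 to 1.51 on the log2 scale, and susceptible replicate 1 is one of these mice. Among EC4 mice (3 susceptible, 3 control), 8 of the 10 genes were lower in susceptible mice, the differences ranging from -0.74 (Camp) to 0.07 (Cxcr2). With the prefix as a term in the fit, 0 of 10 genes were called and Cxcr2 was at 0.65 (adjusted p = 0.991 by limma).

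Between susceptible and resilient B6 mice, 0 of 10 genes were called, against 2.03% of all genes, and 0 had an unadjusted p under 0.05. Among the genes, 8 were higher and Lcn2 and Camp lower in susceptible mice, with log2 fold changes from -0.32 (Camp) to 0.46 (Csf3r) and exact permutation p-values from 0.302 to 0.976. In EC3 mice all 10 genes were higher in susceptible mice, by 0.28 to 1.32, and in EC4 mice all 10 were lower, by -0.77 to -0.20 on the log2 scale. Without susceptible replicate 1, an EC3 mouse, 8 of the 10 genes were lower in susceptible mice, down to -0.52 (Camp), and only Retnlg (0.05) and Csf3r (0.05) were higher, none of them called.

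The same question was asked in the D2 strain. In susceptible D2 mice against controls, 0 of 10 genes were called and 0 had an unadjusted p under 0.05, while 1.57% of all genes were called. All 10 log2 fold changes were negative (median -0.47, range -0.72 to -0.22, median of all genes -0.02), and exact permutation p-values ran from 0.103 (S100a8) to 0.484 (Csf3r). Camp had the largest difference, with a mean of 5.12 ± 0.95 (SD, n = 5) in susceptible mice and 5.84 ± 0.84 (SD, n = 5) in controls, and a 95% interval of the log2 fold change from -1.77 to 0.33.

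The size of the D2 differences, and for 6 genes their sign, depended on how the 2 mice with disagreeing label and column name were treated. With the groups of the column names, the differences ranged from -0.07 (Cxcr2) to 0.45 (Camp), and 6 of the 10 genes had a positive sign. Without both mice, the differences of all 10 genes were negative but smaller, from -0.33 (S100a8) to -0.05 (Csf3r). D2 susceptible replicate 2, one of these mice, was the lowest of all 25 for 7 of the 10 genes. Under neither grouping was any of the 10 genes called. By title prefix, all 10 genes were lower in the 3 susceptible mice than in the 1 control of ED4 (that control and 1 of the 3 are the mice with disagreeing names), 8 of 10 were lower in the single susceptible than in the single control mouse of ED3, and 7 of 10 were higher in the 1 susceptible mouse than in the 3 controls of ED6.

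**Figure D2:**
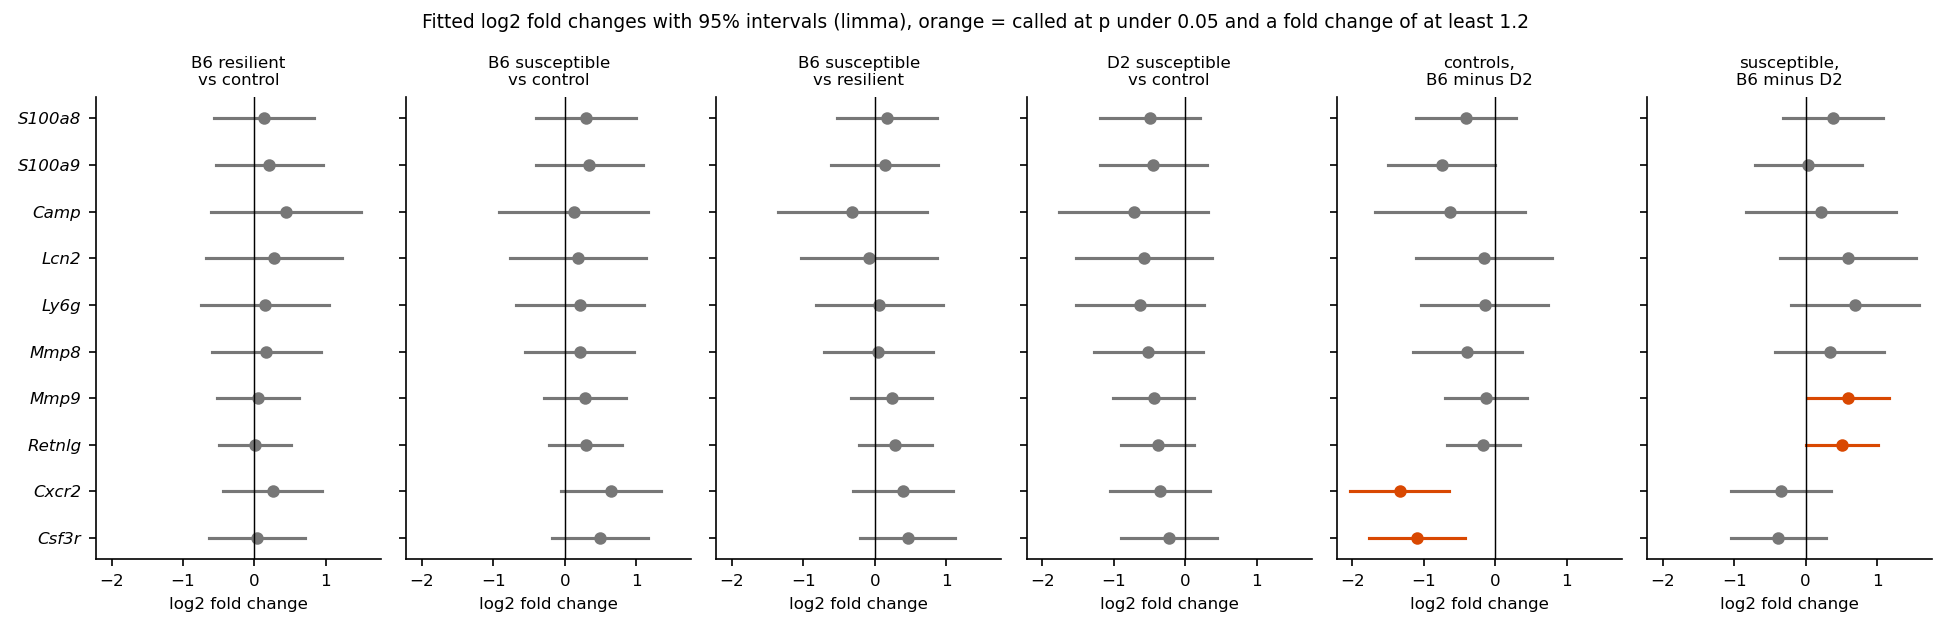
Log2 fold changes of the 10 genes (points) with 95% intervals (lines) from limma in 6 comparisons, with called genes in orange. Intervals of all genes include 0 in the 4 comparisons within a strain, and only Cxcr2 and Csf3r are called between the strains' controls, both lower in B6.

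Between the strains, the 2 receptors differed. In B6 against D2 controls, Cxcr2 and Csf3r were called, 2 of the 10 genes, against 26.4% of all genes. At an adjusted p under 0.05 they were also 2 of 10, against 15.5% of all genes. These counts are near the shares of all genes, so they do not set the 10 genes apart. Cxcr2 was lower in B6 mice, 5.31 ± 0.41 (SD, n = 5) against 6.65 ± 0.55 (SD, n = 5), a log2 fold change of -1.34 ± 0.34 (SE) or 2.53-fold, with adjusted p = 0.00663 by limma. Csf3r was lower in B6 mice, 5.01 ± 0.17 (SD, n = 5) against 6.10 ± 0.53 (SD, n = 5), a log2 fold change of -1.09 ± 0.32 (SE) or 2.14-fold, with adjusted p = 0.0211 by limma. For these 2 genes the groups did not overlap and the exact permutation p was 0.00794, the smallest that 5 against 5 mice can give, while groups did not overlap for 12.0% of all genes.

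The other 8 genes were not called. S100a9 came next, at 9.62 ± 0.67 (SD, n = 5) in B6 and 10.37 ± 0.47 (SD, n = 5) in D2 controls, with p = 0.0502 and adjusted p = 0.184 by limma and an exact permutation p of 0.0873. Their log2 fold changes were all negative, from -0.75 (S100a9) to -0.13 (Mmp9), and the interval of Lcn2 reached from -1.11 to 0.79 and that of Ly6g from -1.04 to 0.74. The 2 receptors stayed called with the groups of the column names (Cxcr2 -1.20, Csf3r -0.91), without the mice whose label and column name disagree (-1.36 and -1.04), and with values scaled to total reads (-1.51 and -1.26), a scaling that moved the median of all genes by -0.17. Without B6 control replicate 4, which was high for the granule genes, 5 of the 10 genes were called, all lower in B6: Cxcr2, Csf3r, S100a9, S100a8 and Camp. In that fit 3466 of all 13084 genes were called.

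Markers of other blood cells were counted in the same comparison, in which 26.4% of all genes were called. In B6 against D2 controls, 6 of 8 platelet genes were called, all lower in B6, and the summed platelet level was between 10.2 and 11.9 log2 CPM in B6 controls and between 11.0 and 12.9 in D2 controls. Of 12 B cell genes, 11 were called, all higher in B6, with summed levels between 10.6 and 11.1 in B6 and between 9.89 and 10.8 in D2 controls. Of 10 monocyte genes, 2 were called, both lower in B6, with summed levels from 8.96 to 9.36 in B6 and from 9.67 to 10.6 in D2 controls. Of the other lists, 5 of 10 eosinophil and basophil genes were called lower and 1 higher in B6, 3 of 13 T cell genes higher and 4 lower, 3 of 8 NK cell genes higher, and 4 of 9 erythroid genes higher. All measured genes of these lists had reads in every mouse. With the groups of the column names and without the mice with disagreeing names, 11 of 12 B cell genes were again called higher, and 7 and 6 of 8 platelet genes lower. Their part in the difference of the receptors was not tested. Strain also went with the title prefix, since no prefix held both strains, and the 2 cannot be told apart.

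The strain comparison was repeated in susceptible mice, which are other animals than the controls. Cxcr2 (-0.34 ± 0.34, SE) and Csf3r (-0.38 ± 0.32, SE) had the same sign but were not called, also with the groups of the column names (-0.48 and -0.57) and without the mice whose label and column name disagree (-0.45 and -0.50). Without B6 susceptible replicate 1 both were called, Cxcr2 at -0.74 (adjusted p = 0.0685 by limma) and Csf3r at -0.78 (adjusted p = 0.0336 by limma). With all mice, Mmp9 (0.59 ± 0.28, SE, p = 0.0418 and adjusted p = 0.181 by limma, exact permutation p = 0.167) and Retnlg (0.51 ± 0.25, SE, p = 0.0484 and adjusted p = 0.20 by limma, exact permutation p = 0.175) were called higher in B6, which makes 2 of 10 genes against 23.7% of all genes. Both calls were lost without B6 susceptible replicate 1 (0.33 and 0.27), with the groups of the column names (0.37 and 0.30) and without the mice whose label and column name disagree (0.45 and 0.34). At an adjusted p under 0.05 there were 0 of 10 genes, against 13.9% of all genes, and no gene had groups that did not overlap, against 12.3% of all genes.

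To test whether the response to stress differed between the strains, the susceptible against control difference in D2 mice was compared with that in B6 mice. The 10 differences were all negative, from -1.0 (Cxcr2) to -0.68 (Retnlg) on the log2 scale, and 1 of 10 genes, Cxcr2, was called, against 5.37% of all genes. The shared sign depended on the D2 grouping. With the groups of the column names, Ly6g, Lcn2 and Camp were positive, and the median of the 10 genes was -0.27 instead of -0.77. Without the mice whose label and column name disagree, all stayed negative. Cxcr2 was at -1.0 ± 0.48 (SE), with adjusted p = 0.918 by limma. The call was lost with the groups of the column names (-0.72), without the mice whose label and column name disagree (-0.91) and without B6 susceptible replicate 1 (-0.60). This comparison shares its mice with the comparisons within strains and with those between strains. At the level of platelet markers, 6 of 8 genes were called in the same direction (8 of 8 with the groups of the column names and without the mice with disagreeing names), and their part in the value of Cxcr2 was not tested.

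The members were not equal in how they followed each other over mice. Pearson's r was computed for the 45 pairs in each strain, 90 relations in all, with permutation p-values that were adjusted over the 90. It ranged from 0.16 to 1.00 in the 15 B6 mice (median 0.79) and from 0.29 to 0.99 in the 10 D2 mice (median 0.79), with adjusted p under 0.05 for 38 of 45 pairs in B6 and 32 of 45 in D2, and for 27 and 22 pairs by Spearman's rho. When 2 mice were left out of each pair, the median r was 0.55 in B6 and 0.61 in D2. These were the 2 mice of the strain farthest from the median of 1 gene of the pair, so they could differ between pairs. That gene was the earlier of the 2 in the order S100a8, S100a9, Mmp8, Mmp9, Cxcr2, Csf3r, Retnlg, Ly6g, Lcn2 and Camp.

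The pairs S100a8 and S100a9, Lcn2 and Camp, and Cxcr2 and Csf3r followed each other in both strains. Other pairs of unlike role did so too, such as S100a8 and Mmp8 (r = 0.967 in B6 and 0.958 in D2). The proteases Mmp8 and Mmp9 gave r = 0.749 in B6 and 0.710 in D2, below the median of 0.79. Whether shared role went with a higher r was not tested. S100a8 and S100a9 gave r = 0.996 and rho = 0.950 in B6 mice (adjusted permutation p = 7.5e-05 and 0.0001, r = 0.991 without the 2 farthest mice) and r = 0.971 and rho = 0.939 in D2 mice (adjusted permutation p = 0.00019 and 0.0015, r = 0.955). Lcn2 and Camp gave r = 0.882 and rho = 0.950 in B6 (adjusted permutation p = 0.00014 and 0.0001, r = 0.908) and r = 0.990 and rho = 0.976 in D2 (adjusted permutation p = 7.5e-05 and 0.0001, r = 0.966). The receptors Cxcr2 and Csf3r gave r = 0.925 and rho = 0.843 in B6 (adjusted permutation p = 0.00039 and 0.0010, r = 0.828) and r = 0.911 and rho = 0.891 in D2 (adjusted permutation p = 0.0009 and 0.0039, r = 0.851).

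**Figure D3:**
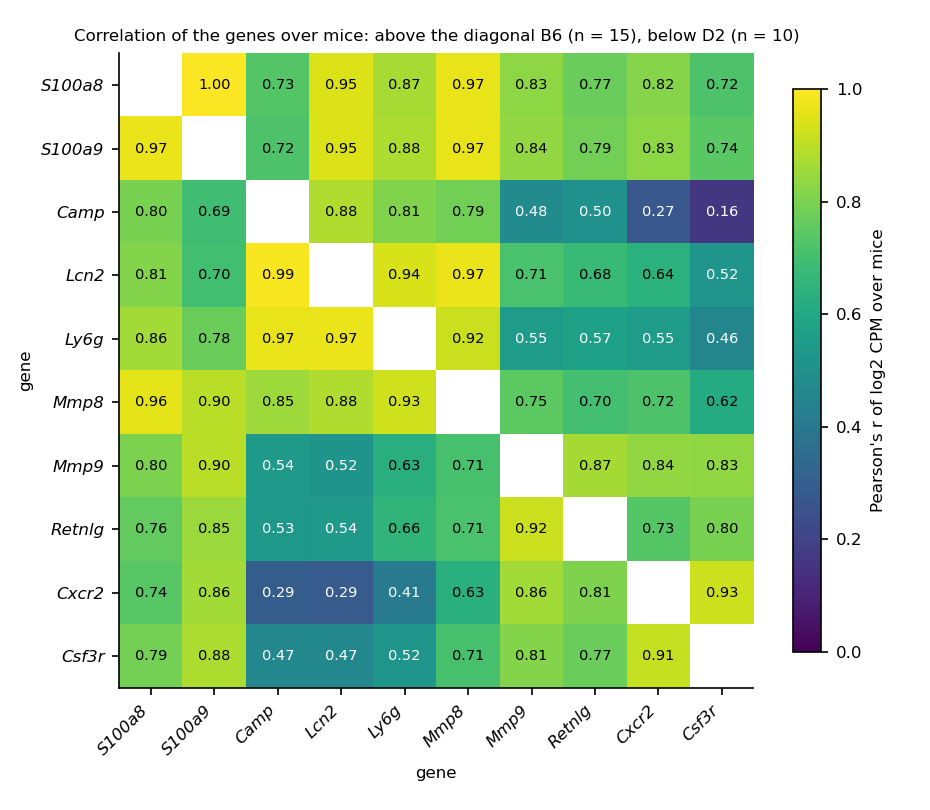
Pearson's r of log2 CPM between each pair of the 10 genes (both axes), above the diagonal over the 15 B6 mice and below it over the 10 D2 mice, on a colour scale from 0 to 1. Camp, Lcn2 and Ly6g form one block and Cxcr2 and Csf3r another, with the weakest values between them (0.16 for Camp and Csf3r in B6).

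Between the granule gene Camp and the receptors the relation was weak. Camp and Cxcr2 gave r = 0.272 and rho = 0.325 in B6 (adjusted permutation p = 0.33 and 0.27, r = 0.111 without the 2 farthest mice) and r = 0.295 and rho = 0.394 in D2 (adjusted permutation p = 0.42 and 0.30, r = 0.114). Camp and Csf3r gave r = 0.163 and rho = 0.121 in B6 (adjusted permutation p = 0.53 and 0.67, r = 0.023) and r = 0.465 and rho = 0.491 in D2 (adjusted permutation p = 0.19 for both, r = 0.130). The difference of Camp and Cxcr2 within a mouse ran from -1.83 to 1.25 over B6 mice and from -2.21 to 0.51 over D2 mice on the log2 scale. Within the B6 control group alone it spanned that B6 range, so mice of the same group differed widely in the granule transcripts relative to the receptors.

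**Figure D4:**
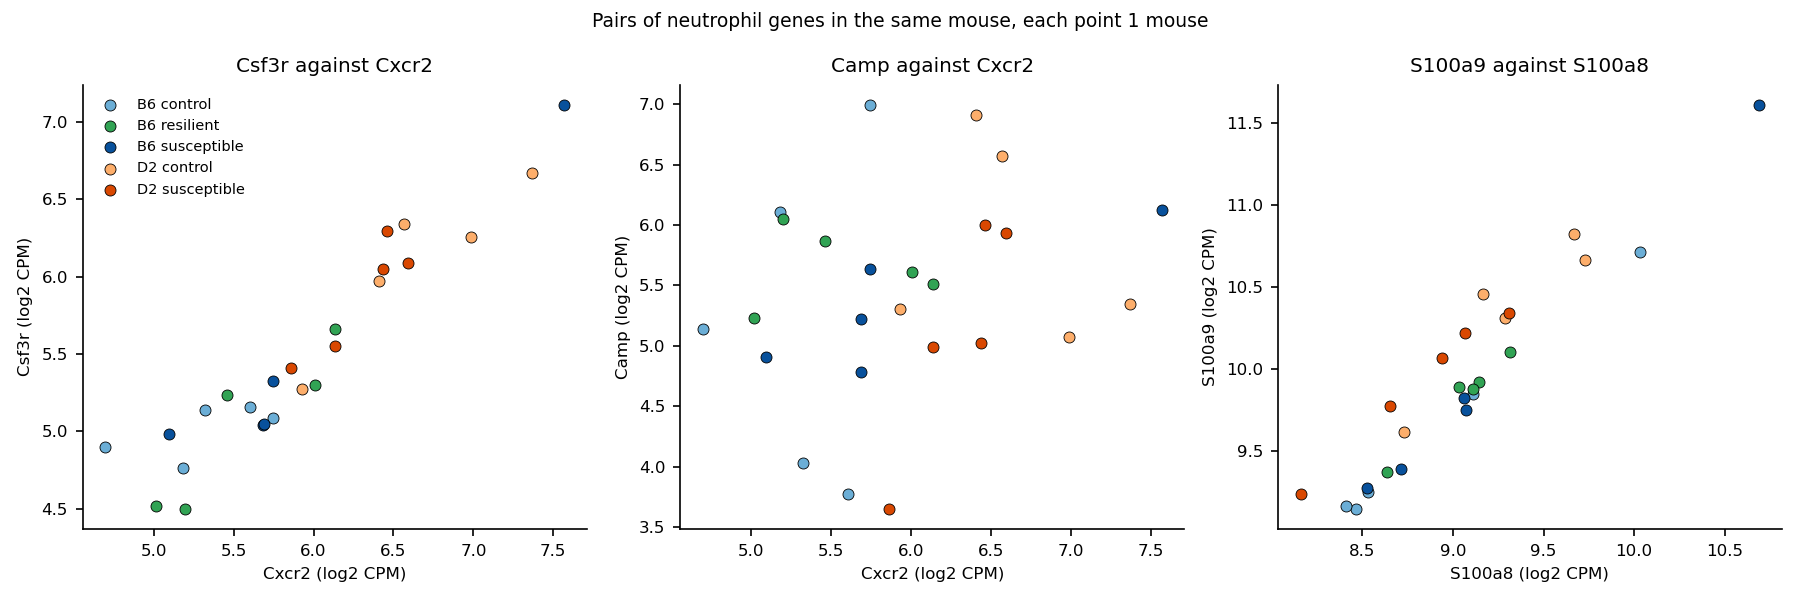
Log2 CPM of Csf3r against Cxcr2, Camp against Cxcr2 and S100a9 against S100a8, each point 1 mouse coloured by group. Csf3r and Cxcr2 rise together, Camp and Cxcr2 scatter, and D2 mice lie above B6 mice in the S100a9 and S100a8 panel at the same S100a8 level (differences 0.89 to 1.29 against 0.67 to 0.92).

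The genes whose pattern was most like the mean of the 10 standardised members over the 25 mice were, among the genes that are no members, Clec5a (r = 0.90), Cd177 (0.87), Anxa2 (0.84), Fpr1 (0.83), Chil1 (0.83), Fosl2 (0.82), Ifit1bl2 (0.82), Pygl (0.82), F630028O10Rik (0.81) and Lcp1 (0.81). Clec5a is a myeloid lectin receptor, Cd177 a neutrophil surface protein and Fpr1 the receptor for bacterial formyl peptides. On deviations from the group means the 5 highest were Clec5a (0.94), Chil1 (0.93), Anxa1 (0.92), Cd177 (0.91) and Fpr2 (0.91). These values are descriptions over mice that share libraries and scaling with the members.

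Other genes of the neutrophil lineage were counted from lists by role. Of 12 specific and gelatinase granule genes, 1 was called in B6 resilient mice against controls (Ceacam10, lower) and 0 in the other 3 comparisons within a strain. Between the controls, 3 were called lower in B6 and 1 higher. Olfm4, a marker of a subset of neutrophils, was at -0.50 in B6 and 1.74 log2 CPM in D2 controls (adjusted p = 0.0126 by limma), Hp, the haptoglobin gene, at 6.01 and 7.05 (adjusted p = 0.0290 by limma), and Chil3, a chitinase-like protein, at 6.67 and 5.13 (adjusted p = 0.0467 by limma). The calls went in both directions, 4 of 12 where 26.4% of all genes were called, with a median log2 fold change of -0.32 against -0.01 over all genes.

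Of 27 mature neutrophil genes, 0 were called in each of the 4 comparisons within a strain. Between the controls 9 were called lower and 1 higher in B6 (10 of 27, against 26.4% of all genes), with a median of -0.44. With the groups of the column names 7 were lower and 1 higher, and without the mice with disagreeing names 8 and 1. The 4 with the smallest p were Msrb1 (4.30 in B6, 5.25 in D2), Fpr2 (2.76 and 4.06), Anxa1 (6.22 and 7.27) and Trem3 (2.86 and 3.86 log2 CPM), with adjusted p-values of 0.0053, 0.00638, 0.0178 and 0.0487 by limma. Between susceptible mice of the strains, 6 were called higher and 2 lower in B6 (8 of 27, against 23.7% of all genes), and 2 higher and 4 lower with the groups of the column names and 1 higher and 2 lower without the mice with disagreeing names, with a median of -0.06 against 0.01 over all genes.

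Of 5 azurophil granule and promyelocyte genes that were measured of 8 listed, 0 were called in any of the 7 comparisons. Of 9 measured granulocyte transcription factors, 1 was called in D2 susceptible mice against controls, against 1.57% of all genes. This was Cebpe (lower, -1.02 ± 0.47, SE, adjusted p = 0.999 by limma), a call lost with the groups of the column names and without the mice with disagreeing names. In B6 against D2 controls 3 of the 9 were called, all lower in B6, where 26.4% of all genes were called. They were Cebpd (adjusted p = 0.0211 by limma), Spi1, which encodes PU.1 (adjusted p = 0.0521 by limma), and Junb (adjusted p = 0.104 by limma). In the list of G-CSF, CXCR2 ligands and the CXCR4 axis, 4 of 8 genes were measured. Ppbp, the platelet-borne CXCR2 ligand, was called higher in B6 susceptible mice than in controls (11.5 against 10.6 log2 CPM, adjusted p = 0.968 by limma) and lower in B6 than in D2 controls (10.6 against 12.1 log2 CPM, adjusted p = 0.0115 by limma). Of 8 platelet genes, 5 were also called higher in B6 susceptible mice than in controls, against 4.50% of all genes called. Their summed levels were from 11.3 to 12.9 and from 10.2 to 11.9 log2 CPM, and their part in the value of Ppbp was not tested.

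The neutrophil miRNA miR-223 was followed in the small RNA libraries of the same 25 mice, which held 6916739 to 10113657 recovered reads on 299 miRNAs. It is a myeloid miRNA known to restrain granulocyte production, and it is also abundant in platelets. The properties named are those of miR-223 in general and were not examined for a single arm. The blood miRNA data held no row of the 3p arm, so only the 5p arm was analysed here. The 5p arm had 77 to 255 reads per mouse. Its mature sequence, at chrX:96242842-96242864 on the plus strand of GRCm38.p6, is shown with the seed (bases 2 to 8) in capitals.

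mmu-miR-223-5p: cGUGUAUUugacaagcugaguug

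The level of miR-223-5p was 3.50, 3.53, 3.99, 4.08 and 4.34 log2 CPM in B6 controls, 3.96, 4.00, 4.03, 4.65 and 4.86 in B6 resilient mice and 3.71, 4.45, 4.54, 4.55 and 4.61 in B6 susceptible mice. It was 4.49, 4.57, 4.67, 4.74 and 4.75 in D2 controls and 3.74, 4.03, 4.10, 4.60 and 4.78 in D2 susceptible mice. By the labels, the D2 controls all lay above the B6 controls and within 0.26 of each other. With the groups of the column names, D2 susceptible replicate 2 (4.03) counts as a control, and the control groups overlapped. The share of all miRNAs whose groups did not overlap was not computed.

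In B6 against D2 controls miR-223-5p was called lower in B6, -0.76 ± 0.23 (SE), with p = 0.00284 and adjusted p = 0.0185 by limma and an exact permutation p of 0.00794, where 25.4% of all 299 miRNAs were called. With the groups of the column names it was at -0.67 and called (adjusted p = 0.0579 by limma, exact permutation p = 0.0238). Without the mice with disagreeing names it was at -0.80 (adjusted p = 0.0285 by limma). In B6 susceptible mice against controls it was called higher, 0.49 ± 0.23 (SE), with p = 0.0440 and adjusted p = 0.980 by limma, where 4.01% of miRNAs were called, but the exact permutation p was 0.0952. This call was lost with the groups of the column names, with values scaled to total reads and without B6 susceptible replicate 1 (0.44). It was not called in B6 resilient mice against controls (0.41, adjusted p = 0.949 by limma, 4.35% of miRNAs called), in B6 susceptible against resilient mice (0.07, 3.01% called), in D2 susceptible mice against controls (-0.40, adjusted p = 0.618 by limma, -0.21 with the groups of the column names and -0.38 without the mice with disagreeing names, 8.70% called) or between susceptible mice of the strains (0.12, 0.03 and 0.07 in the same way, 34.4% called). The difference between the stress responses of the strains was -0.88 ± 0.32 (SE), with adjusted p = 0.691 by limma, and was called, as were 4.35% of miRNAs. It was -0.70 with the groups of the column names and -0.87 without the mice with disagreeing names, called in both. Platelet genes had calls in the same direction in each of these 3 comparisons in which miR-223-5p was called. Of 8 genes, 5 were higher in B6 susceptible mice than in controls (4.50% of all genes called). In B6 against D2 controls 6 of 8 were lower (26.4% called), and 6 of 8 were lower in the difference of responses (5.37% called). Their part in the values of miR-223-5p was not tested.

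**Figure D5:**
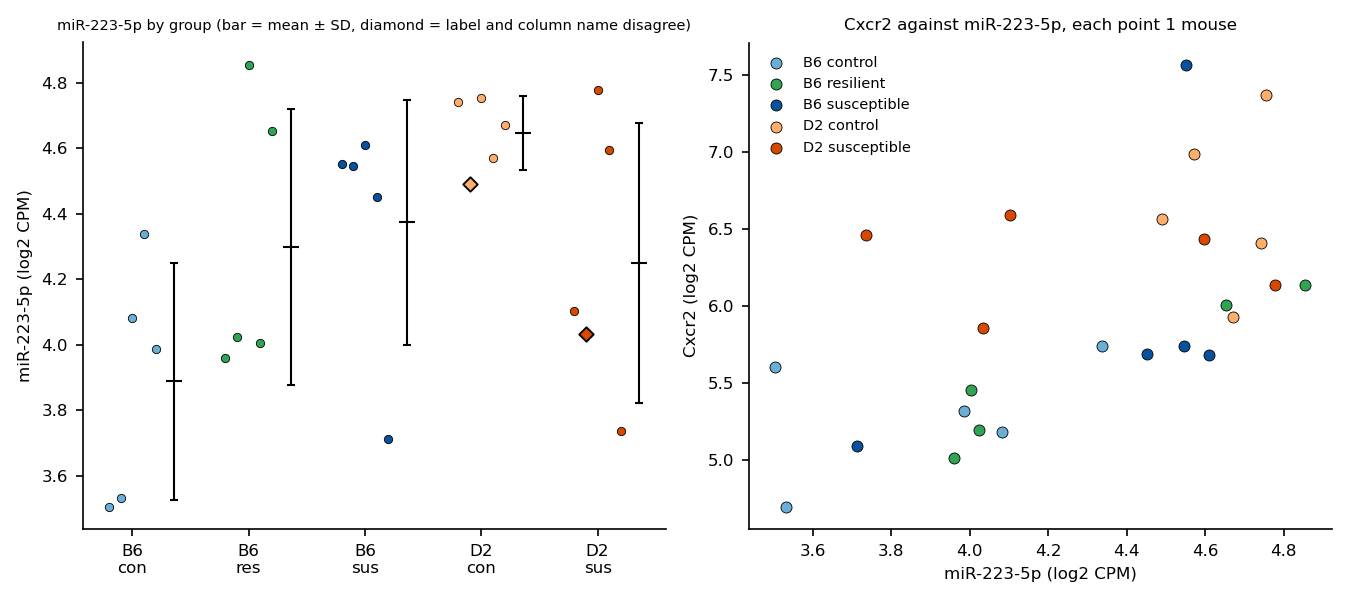
Left, log2 CPM of miR-223-5p (y axis) in each mouse of the 5 groups, with bars for the mean and SD of 5 mice and diamonds for the 2 D2 mice whose label and column name disagree. Right, Cxcr2 (y axis) against miR-223-5p (x axis), both in log2 CPM, each point 1 mouse, with r = 0.650 over the B6 mice and r = 0.207 over the D2 mice.

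Over mice, miR-223-5p was compared with each member in each strain, 20 relations in all. In B6 mice r was positive for all 10 genes, from 0.35 (Ly6g) to 0.65 (Cxcr2). For Cxcr2, r was 0.650 (permutation p = 0.0039, adjusted 0.078) and rho 0.807 (permutation p = 0.00039, adjusted 0.0078), and r was 0.721 without the 2 mice farthest from the median of miR-223-5p. S100a8 (rho = 0.754, adjusted permutation p = 0.018) and S100a9 (rho = 0.700, adjusted permutation p = 0.033) also passed by rho but not by r (adjusted permutation p = 0.20 for both). In D2 mice r lay between -0.04 and 0.39 and the smallest adjusted permutation p was 0.48. Whether the relation differed between the strains was not tested.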

How the data were processed

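Blood mRNA and small RNA were sequenced from the same 25 mice. For mRNA, the authors depleted ribosomal and globin RNA, aligned reads of both strains to GRCm38 with STAR, counted genes with HTSeq on Ensembl annotation, filtered low genes and applied voom. The small RNA reads were mapped with Bowtie 1.1.1 and miRDeep2. The deposited log2 values are log2 CPM on an effective library size, with no adjustment for batch stated for blood. Read counts were recovered from them, whole within 0.0001 reads for all values, which gave the depths printed in the report.

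Groups follow the sample labels. Differences were tested with limma 3.58.1 in R 4.3.3 (moderated statistics with a mean-variance trend), with the 5 groups in 1 model over all 13084 genes or 299 miRNAs and Benjamini-Hochberg adjustment over all of them. Calls needed an unadjusted p under 0.05 together with a 1.2-fold change or more, and groups of 5 mice were also compared by exact two-sided permutation tests. Correlations used 100000 resamples, whose smallest p is 1e-05, and two-sided permutation p-values. The fits were tested on simulated data.

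The text names all 10 members, the 10 genes with the highest correlation with the members' mean and the 5 highest on deviations from group means, up to 4 called genes of each list with the smallest p, and miR-223. Members and lists were chosen with earlier results of these data known, and the comparison of susceptible mice between strains, the fit without the 2 mice and the use of miR-223-5p were added after values had been seen. Alternatives were the groups of the column names, other scalings, weights, filters and offsets, the title prefix as a term, and leaving out each mouse. Promoter and miRNA sequences and gene coordinates were taken from RefSeq (GRCm38.p6) and the GRCm38 annotation. The AGO2 data of the series were not used here.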

Additional observations from a re-analysis of the deposited data

Results flagged for a closer look

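In 9 of the 55 groups of 5 mice checked (10 genes and miR-223-5p in 5 groups), the highest or lowest mouse lay apart from the others by Dixon's test at the 95% level (critical ratio 0.710). A single group passes by chance in about 1 in 20 cases. The 55 groups share mice and genes that followed each other, so the 9 cannot be set against that rate. In the B6 susceptible group, replicate 1 lay apart for S100a8 (10.69 log2 CPM, next mouse 9.07), S100a9 (11.61, next 9.82), Mmp8 (7.29, next 5.38), Cxcr2 (7.57, next 5.74) and Csf3r (7.11, next 5.32). Mmp9 was low in D2 control replicate 5 (4.88, next 5.80) and in D2 susceptible replicate 2 (4.70, next 5.33), the latter a mouse whose label and column name disagree. Lcn2 was low in B6 resilient replicate 1 (3.31, next 3.91). For miR-223-5p, B6 susceptible replicate 5 was low (3.71, next 4.45), and this mouse was not apart for any of the 10 genes.

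The susceptible against control difference differed between D2 and B6 mice for Cxcr2, at -1.0 on the log2 scale (adjusted p = 0.918 by limma), and for miR-223-5p, at -0.88 (adjusted p = 0.691 by limma). Neither passed the adjustment. Causes of these values were not tested.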

How the results depend on the processing

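Of 2703 single values under an alternative, 2511 kept their direction and their side of the threshold, 66 lost and 38 gained a call with the same direction, and 88 that were not called changed sign. The calls of Cxcr2 and Csf3r between B6 and D2 controls, which use the unadjusted p, held in all alternatives run. The adjusted p by limma was at most 0.0275 for Cxcr2 but reached 0.0692 for Csf3r. Of the 10 genes, 3 were called in D2 susceptible mice against controls with sample weights. That setting called 992 of all 13084 genes in this comparison, against 206 in the main fit. Between susceptible mice of the strains (2 called), 0 were called with the groups of the column names, values scaled to total reads, quantile normalization, no trend, only the compared groups, or without the 2 mice whose label and column name disagree, 1 with a mean log2 CPM of at least 2, and 3 with sample weights. Between controls (2 called), 3 were called with total reads, quantile normalization, sample weights or only the compared groups. Of all genes, 3246, 3621, 4272 and 3551 were called in these fits. With sample weights, 3433 of all genes were called between susceptible mice and 764 for the difference of responses. For the difference between the strains' stress responses (1 called), 0 were called with the groups of the column names, voom weights, total reads, quantile normalization, no trend, only the compared groups, the title prefix as a term, or without those 2 mice, and 2 with sample weights.

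Leaving out each mouse in turn gave 0 to 1 called genes in B6 susceptible mice against controls, 0 to 2 in D2 susceptible mice against controls (2 without D2 control replicate 5), 2 to 5 between controls of the strains (5 without B6 control replicate 4), 0 to 2 between susceptible mice and 0 to 4 for the difference of responses (4 without B6 control replicate 4, 3 without B6 susceptible replicates 3 or 5 or D2 control replicate 5). Causes were not tested. Of all genes, 379 were called in D2 susceptible mice against controls without D2 control replicate 5. Between controls, 3466 were called without B6 control replicate 4 (3035 to 3738 leaving out a mouse). For the difference of responses, 899 were called without B6 control replicate 4 and 720 without D2 control replicate 5. Without B6 susceptible replicates 3 and 5 the counts were 423 and 690. Over all 13084 genes, the called count for D2 susceptible mice against controls was 206, and 118 to 992 under the alternatives (890 with the groups of the column names, 152 to 489 leaving out a mouse). For B6 resilient mice against controls it was 276 and ran from 114 to 508 (187 to 1126 leaving out a mouse), for B6 susceptible mice against controls 589 and 266 to 667 (293 to 1060), for susceptible against resilient mice 266 and 102 to 308 (220 to 499), and for the difference of responses 703 and 455 to 1321 (371 to 1086). Scaling to total reads moved the median of all genes by up to -0.27, between susceptible mice. Since no prefix held both strains, the fit with the title prefix gave no contrast between strains, and sample weights and the title prefix were not run for the miRNA. No paired analysis was possible because the replicate numbers only follow the order of the samples. Depth limits Ly6g most, with 11 to 124 reads per mouse.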
